A study of Sus scrofa with 12 samples.

Results

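The genes of the secreted brake on WNT signalling, listed by symbol as DKK1, DKK2, DKK3, SFRP1, SFRP2, FRZB, WIF1, NOTUM and KREMEN1, were followed through endothelial induction of porcine induced pluripotent stem (iPS) cells. All 9 of 9 were found among the 19681 Ensembl pig genes measured. The list was chosen by the FPKM of DKK1, which had been seen to rise by day 12. The day 12 levels of all 9 genes are therefore set against the earlier days without a test, and every level of DKK1 is described without one. Against AOC, a porcine endothelial cell line, the day 12 levels of some of the other genes were tested. The values come from RNA sequencing of 12 libraries in 4 groups, with biological replicates lettered A, B and C in each.

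The IEC2, IEC4 and IEC12 groups were porcine iPS cells collected 2, 4 and 12 days into the induction, and AOC was a porcine endothelial cell line cultured without it. By the study's methods, the cells first received CHIR99021, an inhibitor of GSK3 that switches on β-catenin, up to day 2. BMP4, FGF2 and VEGF followed up to day 4, and an endothelial growth medium (EGM-2) with VEGF was used from then on. IEC12 was the whole culture of day 12, without the sort for CD31-positive cells, and AOC was a single line. The stage and the medium changed together and cannot be told apart.

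WNT proteins bind a frizzled receptor and the co-receptor LRP5 or LRP6 and so keep β-catenin from being degraded. Secreted antagonists act at 2 points of this step. The dickkopf proteins DKK1 and DKK2 bind LRP5 and LRP6, and the membrane protein KREMEN1 helps DKK1 to remove them from the cell surface. The SFRP proteins, FRZB and WIF1 bind the WNT protein itself, and NOTUM is an enzyme that cuts off the lipid WNT needs to bind its receptor. DKK3 is a divergent dickkopf whose role in WNT signalling is less settled. DKK1 is also a known target gene of β-catenin, and WNT activity followed by its restraint is part of mesoderm and heart development.

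Levels are FPKM, a count of fragments scaled to transcript length and library size, a scale divided by gene length on which genes can be set side by side. Summed FPKM ran from 335976 to 457194 per library, and 8357 to 10467 genes reached 1 FPKM. The number of reads behind a library is not known, and a gene listed at 0 may be a failed estimate. Endothelial identity was checked with 10 marker genes. Their summed FPKM lay at 296 to 421 in AOC. At days 2, 4 and 12 it was 3.27 to 5.70, 1.74 to 2.16 and 0.425 to 0.578. In IEC12, 10 of 10 markers lay below 1 FPKM in every library, and CDH5 and TIE1 were listed at 0. The induced libraries are therefore called by their stage, not as endothelial cells. By flow cytometry, the paper did find CD31-positive cells at day 12, as a minority of the culture. CD31 is the protein of the marker PECAM1, and how it relates to the RNA levels here was not tested. The mitochondrial share of the FPKM was 1.95 to 2.19% at day 2, 4.28 to 7.10% at day 4 and 7.77 to 15.0% at day 12, and AOC had 5.65 to 7.05%. In bulk RNA, fewer cells of a type and less RNA per cell cannot be told apart.

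Each group was led by another antagonist. SFRP2 and DKK2 were the highest of the 9 genes in IEC2, SFRP1 in IEC4, DKK1 in IEC12, and WIF1 with DKK3 in AOC. SFRP2 held 68.2 to 81.6% of the summed FPKM of the 9 genes in IEC2 and DKK2 10.1 to 22.6%. SFRP1 held 38.8 to 60.2% in the IEC4 libraries, followed by SFRP2 with 19.2 to 41.3%, although SFRP2 was ahead of SFRP1 in replicate B. DKK1 held 96.7 to 98.2% in IEC12, and WIF1 held 77.0 to 80.1% in AOC with DKK3 at 19.1 to 21.9%. The summed FPKM of the 9 genes was 61.1 to 101 at day 2, 41.3 to 73.4 at day 4 and 441 to 694 at day 12, against 62.8 to 69.7 in the endothelial line. Outside IEC12 the sum thus ran from 41.3 to 101 while the genes that made it up were exchanged.

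**Figure D1:**
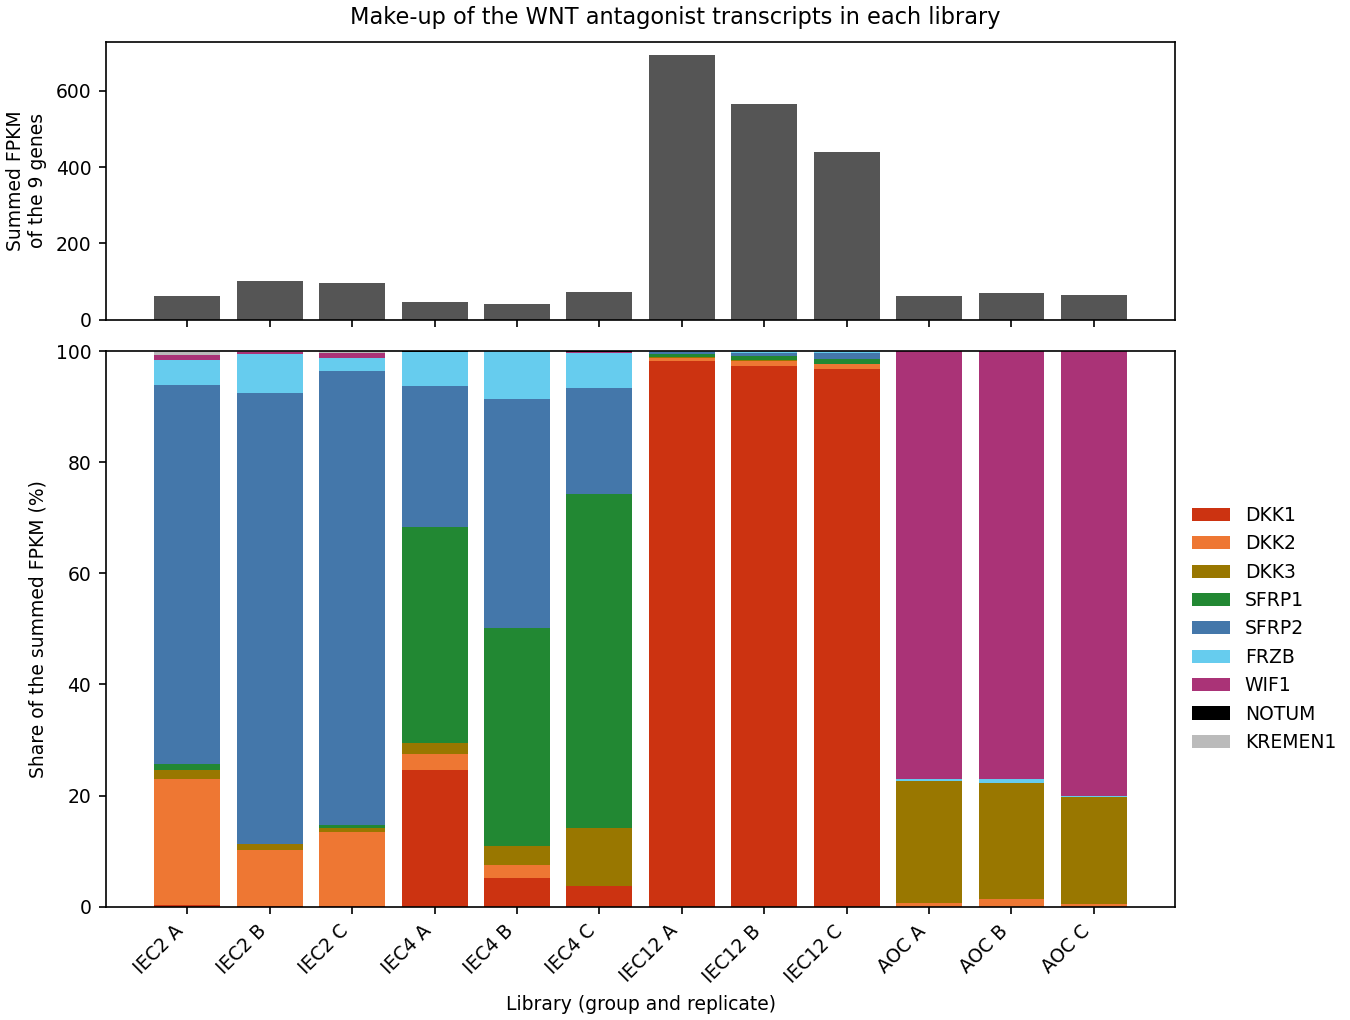
The upper bars give the summed FPKM of the 9 genes in each of the 12 libraries, and the lower bars split it into the percentage each gene contributed. SFRP2 fills most of the IEC2 bars, SFRP1 and SFRP2 most of the IEC4 bars, DKK1 96.7% or more of the IEC12 bars and WIF1 77.0% or more of the AOC bars.

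The study's question was which transcripts change as iPS cells move towards the endothelial state, and the stages were compared in turn. Differences were tested by limma on log2(FPKM + 1) over all genes with at least 1 FPKM in at least 3 libraries, and a gene was called at an adjusted p below 0.05. Of the 9 genes, 6 passed this filter in the 9 IEC libraries and 7 in all 12. WIF1 passed only through AOC, where it was high, so that it had to differ there, and its levels against AOC are given without a test. NOTUM and KREMEN1 never passed. The tests with this filter therefore cover DKK2, DKK3, SFRP1, SFRP2 and FRZB. For WIF1 and KREMEN1, a fit with no filter is given between IEC2 and IEC4 only. Between IEC2 and IEC4, 3 of these 5 genes were called, with SFRP1 higher and DKK2 and SFRP2 lower in IEC4, beside 37.3% of all 10542 genes tested (24.8% higher and 12.5% lower in IEC4). The median of all genes tested differed by 0.20 on the log2 scale in the direction of IEC4, and the calls kept their direction under both other scalings of the libraries.

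DKK1 (ENSSSCG00000010428, chr14:97487854-97490118) was near the floor at the start of the induction and among the most abundant transcripts at its end. It was 0.205, 0.168 and 0.0759 FPKM in IEC2 replicates A, B and C. In IEC4 it was 11.4, 2.15 and 2.69 FPKM, and in IEC12 682, 552 and 426 FPKM. It was listed at 0 in all 3 AOC libraries. The 3 stages did not overlap, and replicate A was the highest library at each of them. The ratio of mean FPKM between IEC4 and IEC2 was 36.0, or 16.2 without IEC4 replicate A.

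The largest step came between days 4 and 12. Mean DKK1 was 553 FPKM (SD 128, n = 3) in IEC12 and 5.40 FPKM (SD 5.19, n = 3) in IEC4, a ratio of 102. This ratio was 229 without IEC4 replicate A, which alone held more DKK1 than replicates B and C together, and 205 with group medians. Against IEC2 the ratio was 3691. Counted from the highest FPKM, DKK1 stood at positions 68, 77 and 105 of 19681 genes in the IEC12 libraries and at positions 4115, 8457 and 8164 in IEC4. With 1 added to both means, DKK1 had the highest ratio of all 19681 genes between IEC12 and the other 9 libraries, 194, and the next was STMN2, a neuronal microtubule regulator, with 46.5. Beside this rise, the mitochondrial share was at its highest in IEC12 and the summed FPKM of the 10 endothelial markers at its lowest. The part of either in the result was not tested. The endothelial transcripts PECAM1 (0.0197 to 0.105 FPKM) and CDH5 (listed at 0) were at or near 0 in the libraries with the most DKK1.

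**Figure D2:**
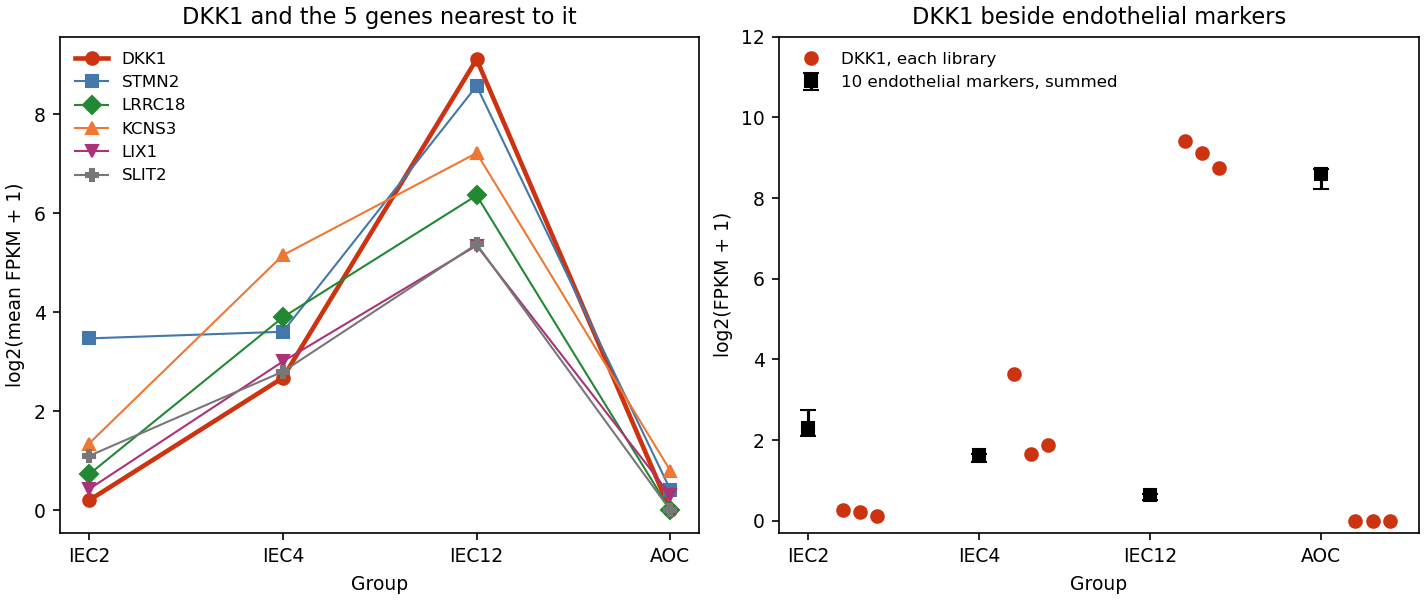
Left, log2 of mean FPKM plus 1 in each group for DKK1 and the 5 genes with the most similar profile. Right, log2(FPKM + 1) of DKK1 in each library (circles) and of the 10 endothelial markers summed (squares, median with bars from the lowest to the highest of 3 libraries). DKK1 is highest in IEC12, where the markers sum to 0.578 FPKM or less, and is listed at 0 in AOC, where they sum to 296 or more.

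DKK2 (ENSSSCG00000032094, chr8:114862056-114974327), which binds the same co-receptors, ran the other way early on and partly returned. It was 13.8, 10.2 and 12.6 FPKM in IEC2 and 1.30, 0.935 and 0.0513 FPKM in IEC4. It was 4.28, 5.06 and 4.07 FPKM in IEC12 and 0.431, 0.979 and 0.361 FPKM in AOC. Every IEC2 library lay above every other library, every IEC12 library lay above every IEC4 and AOC library, and IEC4 and AOC overlapped. DKK2 fell by 2.97 on the log2(FPKM + 1) scale from IEC2 to IEC4 (SE 0.28, limma, adjusted p = 5.53e-05), a 16.1-fold lower mean that was 24.8-fold lower without IEC4 replicate A. In IEC12 its mean was 5.87 times that of IEC4, or 9.07 times without that library, and IEC2 remained 2.73 times as high as IEC12. DKK1 and DKK2 therefore moved in opposite directions between days 2 and 4 and in the same direction between days 4 and 12.

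DKK3 (ENSSSCG00000013401, chr2:47385244-47444664) was mainly a transcript of the endothelial line. It was 13.8, 14.6 and 12.3 FPKM in AOC and 1.03, 1.05 and 0.792 FPKM in IEC2. It was 0.912, 1.43 and 7.58 FPKM in IEC4 and 0.353, 0.923 and 0.439 FPKM in IEC12. The AOC libraries lay above all others, while the 3 stages overlapped apart from one library, IEC4 replicate C. The difference between IEC4 and IEC2 was 0.81 (SE 0.47, limma, adjusted p = 0.201) and was 0.14 without IEC4 replicate C. The IEC4 mean was 5.79 times that of IEC12 with this library and 2.05 times without it. IEC4 replicate C also had the highest CDH1 (42.8 FPKM) and KRT8 (748 FPKM) of all libraries, both epithelial transcripts, and their part in its DKK3 level was not tested.

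Among the WNT-binding proteins, SFRP2 and SFRP1 exchanged places between days 2 and 4. SFRP2 (ENSSSCG00000009004, chr8:75337311-75345926) was 41.7, 82.0 and 77.3 FPKM in IEC2 and 11.7, 17.1 and 14.1 FPKM in IEC4. It was 1.73, 3.38 and 4.72 FPKM in IEC12 and listed at 0 in every AOC library. The groups stood in a strict order with no overlap, each stage below the one before it. SFRP2 fell by 2.11 on the log2(FPKM + 1) scale from IEC2 to IEC4 (SE 0.32, limma, adjusted p = 0.000849), and its mean was 4.69 times higher in IEC2. From IEC4 to IEC12 the mean was lower by a further 4.36-fold, so that IEC2 stood 20.4 times above IEC12.

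SFRP1 (ENSSSCG00000025822, chr17:10436414-10489773) peaked at day 4 instead. It was 0.599, 0.0165 and 0.494 FPKM in IEC2 and 17.9, 16.2 and 44.1 FPKM in IEC4. It was 4.31, 4.00 and 3.92 FPKM in IEC12 and listed at 0 in every AOC library. No group overlapped another, and IEC12 lay between IEC4 and IEC2. The rise from IEC2 to IEC4 was 4.19 on the log2(FPKM + 1) scale (SE 0.34, limma, adjusted p = 2.71e-05), and the ratio of means was 70.5, or 46.1 without IEC4 replicate C. The IEC4 mean was 6.40 times that of IEC12, or 4.18 times without that library, and IEC12 was 11.0 times IEC2. The 4 simple epithelium markers found also peaked at day 4, with summed FPKM of 13.3 to 21.2 at day 2, 316 to 822 at day 4, 4.68 to 16.0 at day 12 and 0.0509 or less in AOC. KRT8 made up most of these sums, with a mean of 15.6 FPKM at day 2 and 9.87 at day 12. CDH1, EPCAM and KRT18 had higher means at day 12 than at day 2, all below 1 FPKM. The part of these markers in the SFRP1 levels was not tested.

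FRZB (ENSSSCG00000016018, chr15:88332856-88377275), also known as SFRP3, showed no call between days 2 and 4. It was 2.79, 7.09 and 2.25 FPKM in IEC2 and 2.80, 3.57 and 4.58 FPKM in IEC4. It was 1.40, 1.72 and 1.14 FPKM in IEC12 and 0.251, 0.504 and 0.108 FPKM in AOC. IEC2 and IEC4 overlapped, with a difference of -0.02 (SE 0.32, limma, adjusted p = 0.976), and IEC12 lay below both. The IEC2 mean was 2.85 times that of IEC12, or 1.78 times without IEC2 replicate B, the highest library, and the IEC4 mean was 2.57 times that of IEC12.

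WIF1 (ENSSSCG00000030998, chr5:29450442-29543913) was 48.4, 53.6 and 51.2 FPKM in AOC and below 1 FPKM in every induced library. It was 0.519, 0.498 and 0.855 FPKM in IEC2, and the IEC4 and IEC12 libraries held at most 0.186 FPKM. IEC4 replicates A and B and IEC12 replicate B were listed at 0. All IEC2 libraries lay above all IEC4 and IEC12 libraries, and in a fit with no filter on low values the fall from IEC2 to IEC4 was 0.63 in size on the log2(FPKM + 1) scale (limma, adjusted p = 0.00494), a fit that called 22.3% of 18415 genes.

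NOTUM (ENSSSCG00000039013, chr12:1033814-1044412) was listed at 0 in 9 of 12 libraries and reached no more than 0.0995 FPKM. No difference between groups was detectable at this level. KREMEN1 (ENSSSCG00000009972, chr14:46254248-46323355) was 0.399, 0.121 and 0.369 FPKM in IEC2 and listed at 0 in all IEC4 libraries. It was 0.196, 0.255 and 0.0315 FPKM in IEC12, and in AOC it was listed at 0 in replicates A and B with 0.0355 FPKM in replicate C. The fit with no filter, which called 22.3% of 18415 genes, gave a difference of -0.37 between IEC4 and IEC2 (limma, adjusted p = 0.0323). Every KREMEN1 value lay below 1 FPKM, and a value listed at 0 may be a failed estimate. Thus the receptor that assists DKK1 stayed below 1 FPKM where DKK1 was highest.

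**Figure D3:**
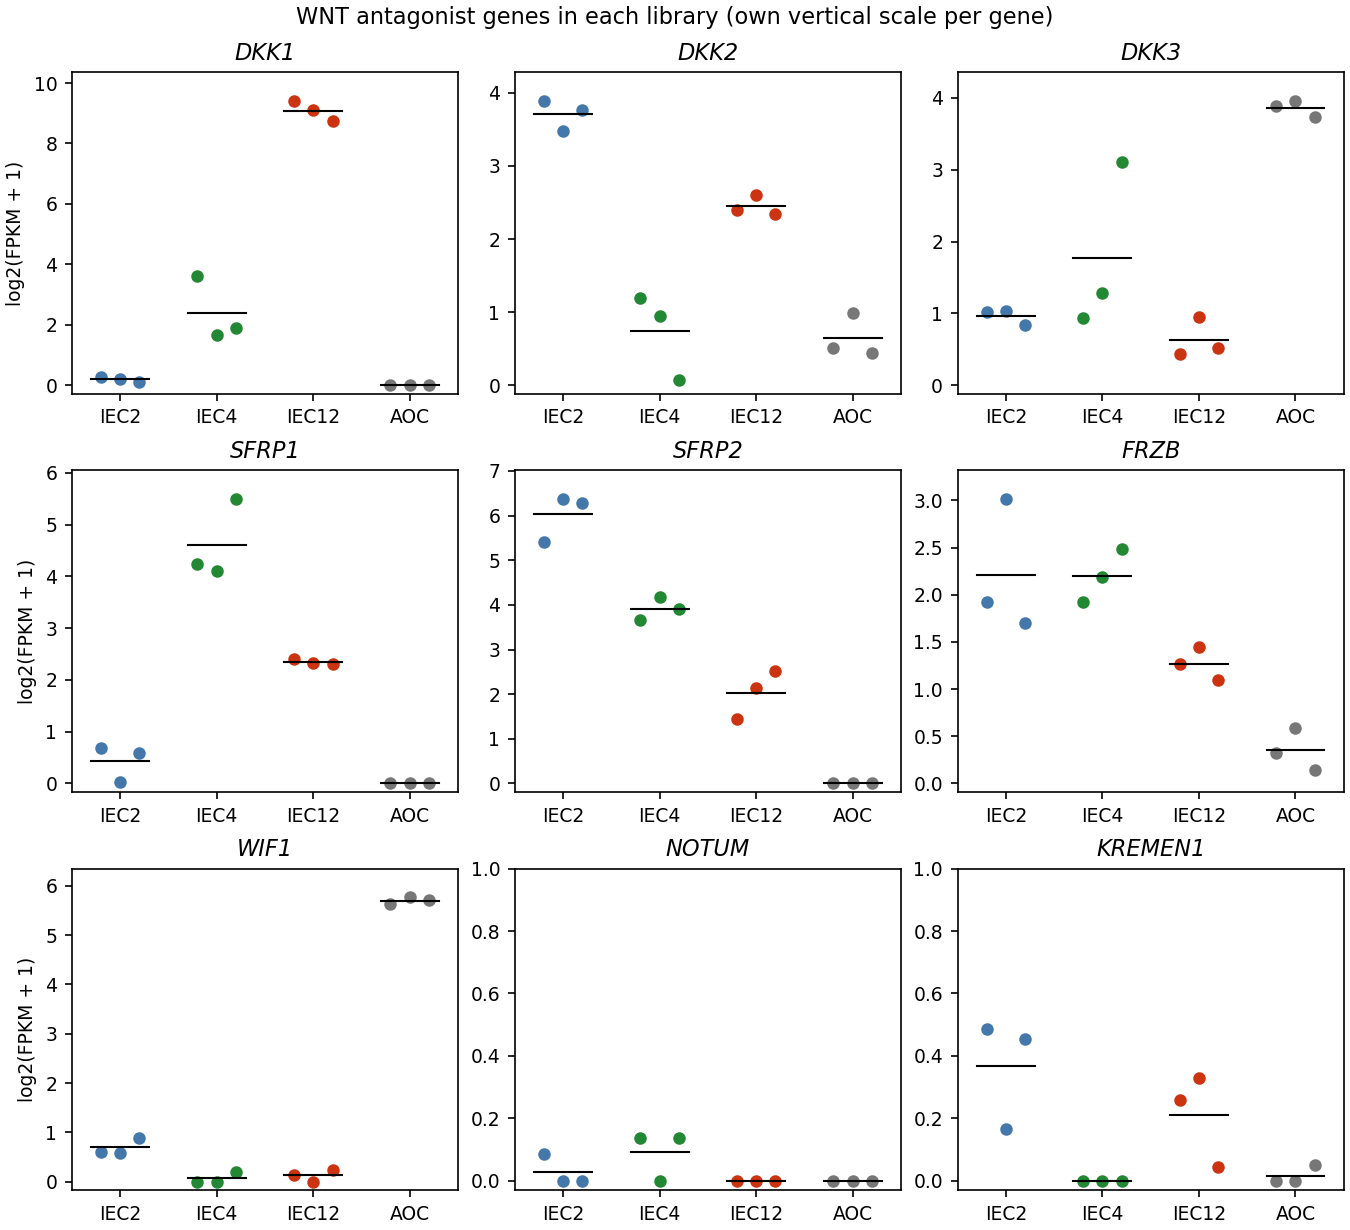
Each point is the log2(FPKM + 1) of one library and each line the mean of 3, with a separate vertical scale for each of the 9 genes. DKK1 peaks in IEC12, SFRP1 in IEC4, SFRP2 and DKK2 in IEC2, and WIF1 and DKK3 in AOC, while NOTUM and KREMEN1 stay below 1 FPKM.

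Over the whole list, 6 of the 9 genes had no overlap between IEC12 and IEC4, with DKK1, DKK2 and KREMEN1 higher in IEC12 and SFRP1, SFRP2 and FRZB higher in IEC4. Of all genes tested, 56.3% did not overlap between these groups, 22.1% with IEC12 and 34.3% with IEC4 higher. Between IEC12 and IEC2, 6 of the 9 genes again did not overlap, beside 54.4% of all genes tested (29.9% with IEC12 and 24.4% with IEC2 higher). DKK1 and SFRP1 were higher in IEC12, and DKK2, SFRP2, FRZB and WIF1 were higher in IEC2. WIF1, NOTUM and KREMEN1 are counted in the 9 but did not pass the filter behind the shares of all genes tested. Because the day 12 rise of DKK1 also chose the list, nothing is read from these counts.

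The induced stages were next set against AOC, the endothelial line. The same AOC libraries served in each comparison. With DKK1 and WIF1 left out, 4 of 5 genes were called against IEC2, beside 63.8% of all 11053 genes tested, and 4 of 5 against IEC4, beside 69.1%. Against IEC12, 5 of 5 were called, beside 58.5%. These shares of all genes are high in themselves, and the median difference over all genes was -0.20, -0.45 and -0.21 on the log2 scale against IEC2, IEC4 and IEC12. The paper's stricter limits (p and adjusted p below 0.001, absolute log2 fold change above 3) were set for iPS cells against AOC. Here they were applied to differences of log2(FPKM + 1), which are smaller than log2 ratios for genes of low level. They left 2, 2 and 1 of these genes called in the same order, beside 5.47%, 5.17% and 4.41% of all genes. Between IEC4 and IEC2 they left 1, beside 1.18%.

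WIF1 and DKK3 stood higher in AOC than in any induced library. The mean of WIF1 was 81.9 times that of IEC2. DKK3 was called against each stage, in a direction in which 26.7%, 22.1% and 22.4% of all genes were called against IEC2, IEC4 and IEC12. It differed by 2.89 (SE 0.43, limma, adjusted p = 9.12e-05) from IEC2, by 2.08 (adjusted p = 0.00102) from IEC4 and by 3.22 (adjusted p = 4.62e-05) from IEC12. Its mean in AOC was 14.2 times that of IEC2 and 23.7 times that of IEC12. Against IEC4 the ratio was 4.08, or 11.5 without IEC4 replicate C.

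SFRP2, SFRP1, DKK2 and FRZB were lower in AOC than in at least one stage. In this direction 37.1%, 47.0% and 36.2% of all genes were called against IEC2, IEC4 and IEC12. SFRP2, listed at 0 in AOC, was lower there than in IEC2 (limma, adjusted p = 9.12e-09), IEC4 (adjusted p = 3.73e-07) and IEC12 (adjusted p = 9.26e-05). SFRP1, also listed at 0, was lower than in IEC4 (adjusted p = 1.61e-07) and IEC12 (adjusted p = 4.76e-05), and its difference from IEC2 had an adjusted p of 0.251. With a pseudocount of 0.1 in place of 1, the difference of SFRP1 from IEC2 passed the threshold (adjusted p = 0.0164). DKK1, listed at 0 in AOC, was above 0 in all 9 induced libraries. No fold is given against genes listed at 0.

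DKK2 was lower in AOC than in IEC2 by 3.07 in size (SE 0.27, limma, adjusted p = 1.15e-06) and than in IEC12 by 1.80 (adjusted p = 0.000121), 20.7-fold and 7.57-fold in mean FPKM. Its difference from IEC4 was -0.09 (SE 0.27, adjusted p = 0.772) and changed sign under 5 of the alternatives. FRZB was lower in AOC than in IEC2 by 1.86 in size (SE 0.30, limma, adjusted p = 0.000175), in IEC4 by 1.85 (adjusted p = 0.00018) and in IEC12 by 0.91 (adjusted p = 0.0202). The last call was lost without IEC12 replicate B (adjusted p = 0.0674), AOC replicate A (adjusted p = 0.0534) or AOC replicate C (adjusted p = 0.0702). The ratio of IEC12 to AOC was 4.93 for FRZB, and 7.90 without AOC replicate B.

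**Figure D4:**
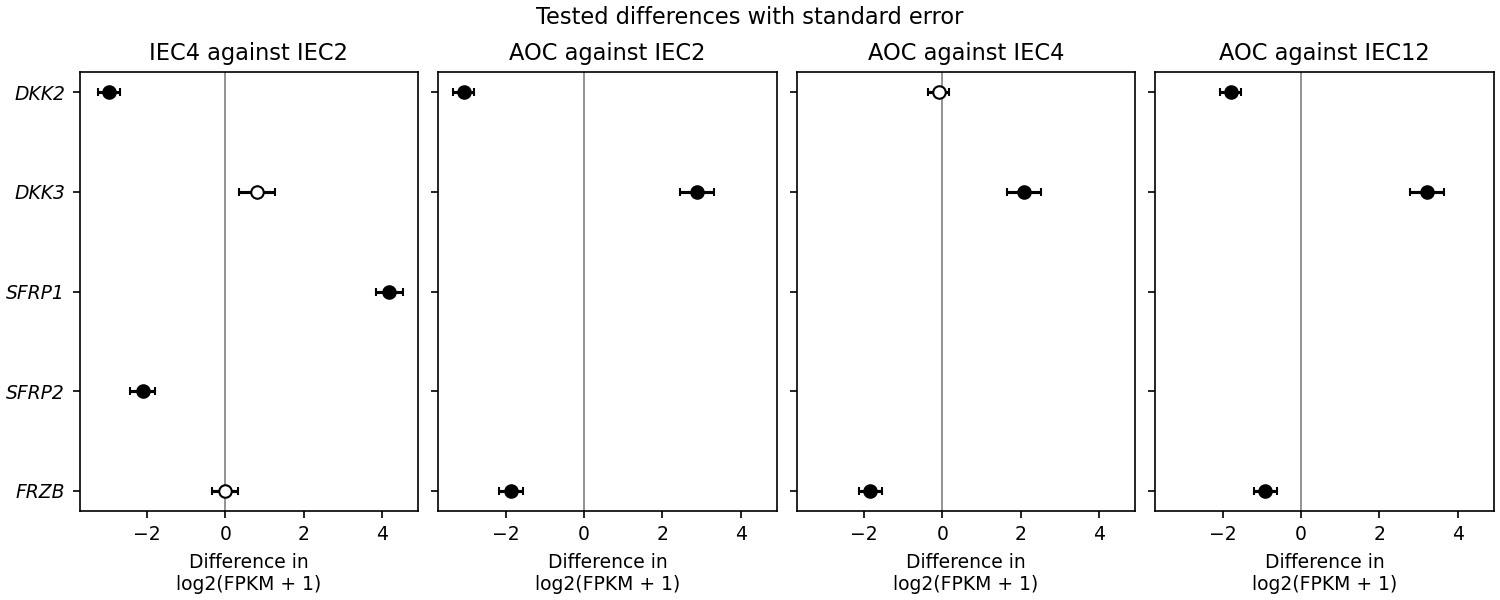
Differences in log2(FPKM + 1) with their standard errors from the limma fits, for the genes and comparisons tested. Filled points have an adjusted p below 0.05 and open points do not. Genes listed at 0 in every library of a group are not drawn for that group, and DKK1 and WIF1 are left out. DKK3 lies to the right of 0 in each AOC panel, and DKK2 and FRZB to the left with one open point, DKK2 against IEC4.

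Genes with a profile like each antagonist were sought among 9158 genes with a symbol, by the root-mean-square difference of log2(FPKM + 1) over the 12 libraries after centring each gene. The 5 nearest to DKK1 were STMN2 (1.49), LRRC18 (1.70), KCNS3 (1.70), LIX1 (1.83) and SLIT2 (1.88), beside a median of 3.74 over the genes compared. STMN2 averaged 10.1 FPKM in IEC2, 11.2 in IEC4, 381 in IEC12 and 0.331 in AOC. KCNS3, a potassium channel subunit, averaged 1.55, 34.6, 148 and 0.741 FPKM in the same order. SLIT2, a secreted guidance protein, averaged 1.14, 5.98 and 40.6 FPKM and was listed at 0 in AOC, as DKK1 was. These distances show that even the nearest gene was more than a unit of log2 away from DKK1. The other antagonists that passed the filter had closer neighbours, such as SNAP25 for SFRP2 (0.25), UNC119 for FRZB (0.21), SMPDL3B for DKK3 (0.22), PLAC9 for WIF1 (0.26) and HENMT1 for SFRP1 (0.51). Their medians over the genes compared were also lower than that of DKK1, from 0.87 for FRZB to 2.54 for WIF1. The distances of different antagonists are thus not on an equal footing. SNAP25, a protein of synaptic vesicle release, averaged 72.5 FPKM in IEC2, 12.9 in IEC4 and 3.33 in IEC12 and was listed at 0 in AOC.

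The rest of the pathway gave the setting in which these antagonists moved. Of 76 other WNT genes listed by role, 67 were found, and 28 were tested in the IEC libraries. Between IEC2 and IEC4, 6 were higher and 4 lower in IEC4, which is 35.7% beside 37.3% of all genes. Between IEC4 and IEC12, 6 were higher and 5 lower in IEC12, or 39.3% beside 44.2% (17.3% higher and 26.9% lower), and this split was 8 and 4 with median-of-ratios scaling. Their medians were 0.08 and 0.17 on the log2 scale, beside 0.20 and -0.15 over all genes tested. Neither share was above that of all genes, and under the limits of the paper 0 of them were called between IEC4 and IEC12, beside 0.939%. The genes counted include some, SOST, CCND1 and WNT11 among them, that passed the filter only with the group where they were highest.

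A pair of further antagonists rose with DKK1. SOSTDC1, which like sclerostin binds LRP5 and LRP6, was 0.769 to 1.22 FPKM at day 2, 8.15 to 14.0 at day 4 and 28.9 to 64.4 at day 12, and at most 0.104 in AOC. It rose by 2.58 (SE 0.29, limma, adjusted p = 0.000144) from IEC2 to IEC4 and by 1.85 (SE 0.29, adjusted p = 0.000992) from IEC4 to IEC12. SOST, the sclerostin gene, was listed at 0 in IEC2 and AOC. It lay between 0.369 and 1.45 FPKM in IEC4 and between 1.99 and 7.10 FPKM in IEC12. SOST passed the filter only with IEC12, where it was high, so nothing is read from its call. Of the 3 other antagonists tested, SOSTDC1 and SOST were higher in IEC12 than in IEC4. DKKL1 was 11.7 to 14.1 FPKM in IEC4 and 8.13 to 10.8 FPKM in IEC12 (adjusted p = 0.0959). APCDD1 did not pass the filter, with at most 0.776 FPKM in any library.

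Of 12 receptors and agonists tested, 3 were higher and 1 lower in IEC12 than in IEC4. FZD4, a frizzled receptor, rose from 11.8 to 13.8 FPKM in IEC4 to 31.5 to 38.6 FPKM in IEC12, by 1.36 on the log2 scale (limma, adjusted p = 0.000794), and RYK, a WNT co-receptor, by 1.12 (adjusted p = 0.00733). FZD6 (adjusted p = 0.748 and 0.133) and FZD3 (adjusted p = 0.462 and 0.428) showed no call from IEC2 to IEC4 or from IEC4 to IEC12. FZD3 averaged 11.6, 10.4 and 11.6 FPKM at days 2, 4 and 12. LGR5, an R-spondin receptor named here after its values were seen, was 9.19 to 16.9 FPKM in IEC2, at most 0.244 in IEC4 and 1.24 to 1.68 in IEC12, the same order of stages as for DKK2. The targets of DKK1, also named after their values were seen, were unevenly present. LRP6 was 3.87 to 4.94 FPKM at day 2, 7.53 to 10.6 at day 4, 4.96 to 6.52 at day 12 and 2.18 to 2.45 in AOC, while LRP5 stayed at or below 0.426 FPKM in all libraries. KREMEN2, the second dickkopf receptor, also named after its values were seen, was 0.594 to 0.915 FPKM in IEC4 and 0.365 to 1.20 in IEC12.

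Of 7 genes of WNT ligands and their export tested, none was higher and 2 were lower in IEC12 than in IEC4. WLS, which carries WNT proteins to the cell surface, averaged 204 FPKM in IEC2, 81.2 in IEC4 and 37.7 in IEC12, and fell by 1.32 (limma, adjusted p = 0.000104) into IEC4 and fell by 1.08 (adjusted p = 0.00037) into IEC12. WNT3 rose by 1.98 (adjusted p = 0.000348) to a mean of 4.20 FPKM in IEC4 and fell by 1.03 (adjusted p = 0.00996) to 1.44 in IEC12. WNT11 averaged 3.97 FPKM in IEC2 and 0.558 in IEC4. It passed the filter only with IEC2, where it was high, so nothing is read from its call. PORCN, the enzyme that attaches the lipid to WNT proteins, averaged 7.75, 8.10 and 10.8 FPKM at days 2, 4 and 12 (adjusted p = 0.848 and 0.341 for the 2 steps). Of the 6 nuclear effectors and targets tested, LEF1, a partner of β-catenin on DNA, rose by 1.32 (adjusted p = 0.00112) from IEC4 to a mean of 28.8 FPKM in IEC12. CCND1, the cyclin D1 gene, averaged 0.398, 7.85 and 1.36 FPKM at days 2, 4 and 12. Among the IEC libraries it passed the filter only with IEC4, where it was highest, so nothing is read from its calls between stages. CTNNB1, the β-catenin gene, averaged 82.4, 108 and 131 FPKM at days 2, 4 and 12 (adjusted p = 0.0825 and 0.22), and APC, of the complex that degrades β-catenin, 9.02, 7.42 and 9.06 FPKM (adjusted p = 0.376 and 0.324). AXIN2, a widely used readout of β-catenin activity named here after its values were seen, stayed between 0.0380 and 1.01 FPKM throughout.

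Against AOC the pathway list was uneven. Of 29 genes tested, 22 were lower and 2 higher in AOC than in IEC12, which is 82.8% beside 58.5% of all genes (36.2% lower and 22.4% higher), and the median difference was -1.15 beside -0.21. Of the 2 higher genes, WNT2B, named here after its values were seen, passed the filter only through AOC. It was 2.03 to 2.79 FPKM there and at most 0.786 FPKM in the induced libraries, so that it had to differ, and nothing is read from its call. All 3 other antagonists and 11 of 12 receptors and agonists tested were among the lower ones. SOST, among these antagonists, passed the filter only with IEC12, so nothing is read from its call either. LEF1 was lower by 4.88 in size (limma, adjusted p = 2.02e-09), and CCND1 was higher by 5.45 (adjusted p = 5.66e-09). In these libraries AOC thus combined high WIF1 and DKK3 with lower levels of most other WNT genes tested than IEC12.

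**Figure D5:**
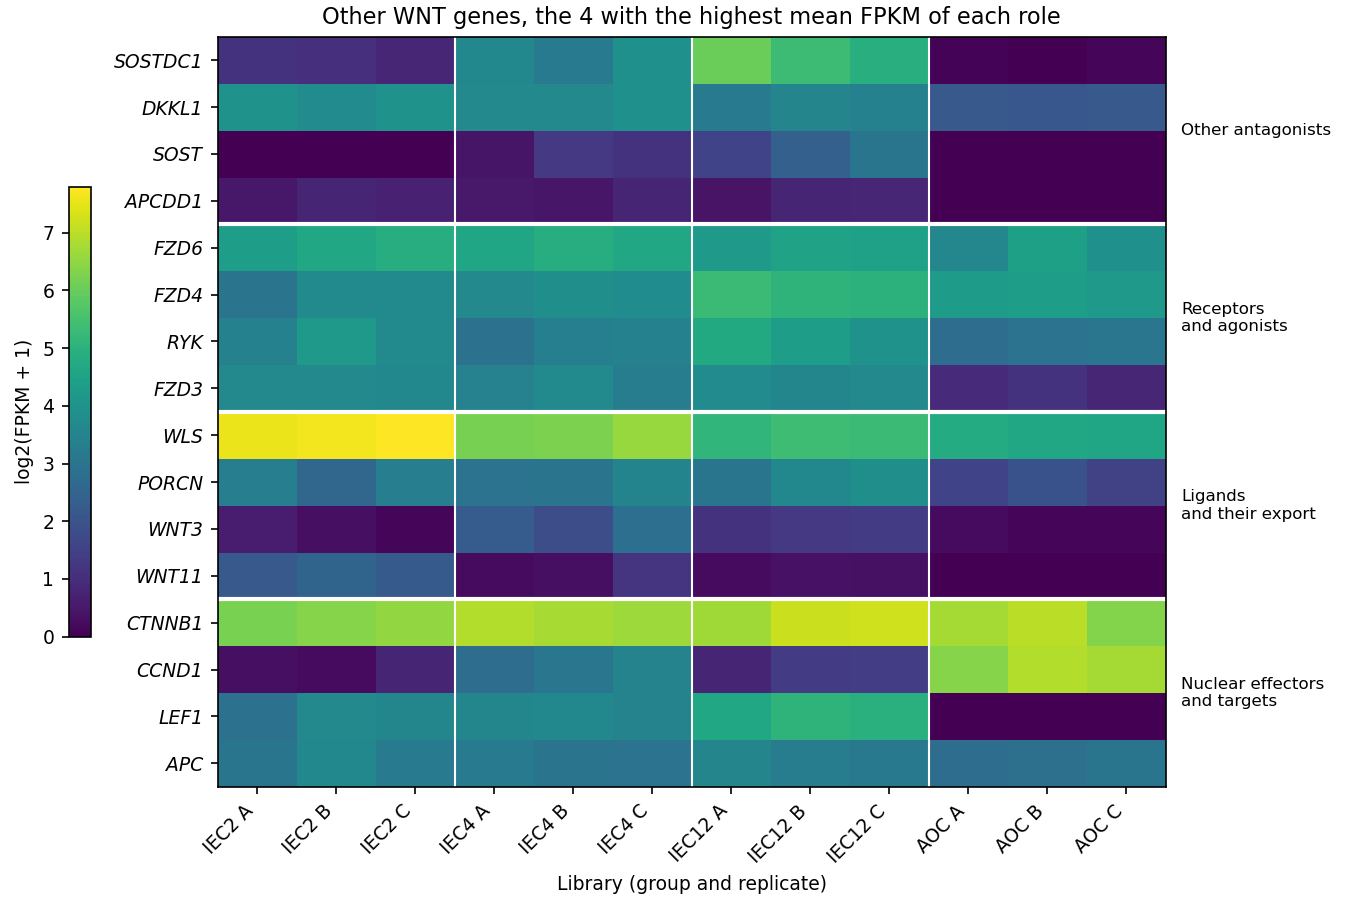
Colour gives the log2(FPKM + 1) of 16 other WNT genes (rows, the 4 with the highest mean FPKM of each role) in the 12 libraries (columns, by group). Within their own rows, SOSTDC1, SOST, FZD4 and LEF1 are brightest in IEC12, WLS in IEC2 and CCND1 in AOC.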

How the data were processed

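The authors sequenced 3 biological replicates per group and analysed the reads with the Galaxy tool. Per the labels, cDNA was amplified by Smart-Seq2. The submitters' processing notes name TopHat2 2.0.12, Bowtie2 2.2.3, Cufflinks 2.2.1 and susScr11. The deposited values are FPKM, 1 per gene and library. Libraries of iPS cells and of sorted cells (S) were not used here. Symbols were paired with 13998 of 19681 identifiers, and coordinates come from the RefSeq table of Sscrofa11.1, matched by symbol (9 of 9 genes).

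The 9 genes and all lists were chosen with earlier results of these data known. Group means of log2(FPKM + 1) were fitted with limma 3.58.1 in R 4.3.3 (functions lmFit and contrasts.fit, then eBayes with trend = TRUE) on 10542 genes in the 9 IEC libraries or 11053 in all 12, with Benjamini-Hochberg adjustment over all of them. The test was tested on simulated data. No library was identical to another. Of each pathway role, the 4 genes with the highest mean FPKM were named, and those outside this rule are marked. One gene near an antagonist in profile is not reported here. Of the markers, VWF and CLDN5 were not found by symbol. Of the lists for other cells, the 8 fibroblast and smooth muscle markers summed to 71.9 to 113 FPKM in IEC2, 50.0 to 59.4 in IEC4, 61.5 to 79.3 in IEC12 and 22.9 to 36.2 in AOC. COL3A1 alone made up most of this in the induced groups, with means of 93.6, 45.6 and 70.8 FPKM at days 2, 4 and 12. Of the 8 markers, 6 lay below 1 FPKM in every IEC2 library and 6 in every IEC12 library. The 5 mesoderm markers found summed to at most 0.309, 11.7, 4.02 and 3.97 FPKM in IEC2, IEC4, IEC12 and AOC. In the same order, the 3 pluripotency markers found summed to at most 0.155, 7.66, 1.58 and 0.0462 FPKM. The 5 cardiomyocyte markers summed to at most 0.759, 1.16, 0.397 and 0.0908 FPKM. The 1 endoderm marker found, APOA1, was at most 0.485, 2.56, 0.190 and 38.9 FPKM. Python 3.11.15, pandas 2.3.3, NumPy 2.4.6 and matplotlib 3.10.9 were used for descriptions and figures. Alternatives were another pseudocount, no filter, only the groups compared, a replicate block, other scalings, an untied variance, the limits of the paper and each replicate left out.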

Additional observations from a re-analysis of the deposited data

How the results depend on the processing

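The counts in this paragraph include DKK1, described above without a test, and WIF1, described so against AOC. Of 26 single differences of the 9 genes, 174 of 179 values kept their direction and side of the threshold under the settings other than a left-out replicate and the limits of the paper, and so did 139 of 147 with a replicate left out. Equal-totals scaling was added after seeing the data and changed none of the 26. With a pseudocount of 0.1, SFRP1 became called between AOC and IEC2. Differences near 0 changed sign without being called. For FRZB between IEC4 and IEC2 this gave 0.0073 with a pseudocount of 0.1, 0.39 without IEC2 replicate B and 0.12 without IEC4 replicate A, in a range from -0.27 to 0.39 with a replicate left out. For DKK2 between AOC and IEC4 it gave 0.091 with a pseudocount of 0.1, 0.087 with median-of-ratios scaling, 0.14 and 0.013 without IEC4 replicates A and B, and 0.0095 without AOC replicate C, in a range from -0.43 to 0.14.

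The counts of genes called depend on the limits. The paper's limits, for iPS cells against AOC, were p and adjusted p below 0.001 and an absolute log2 fold change above 3. Here they were applied to differences of log2(FPKM + 1). With DKK1 and WIF1 left out, the genes of the list called under them were 1 for IEC4 against IEC2, 2 for AOC against IEC2, 2 for AOC against IEC4 and 1 for AOC against IEC12. The shares of all genes were 1.18%, 5.47%, 5.17% and 4.41%. In the same order, the limma test at an adjusted p below 0.05 called 3, 4, 4 and 5, beside 37.3%, 63.8%, 69.1% and 58.5% of all genes tested. The pathway genes called were 1 for IEC4 against IEC2, 0 for IEC12 against IEC4 and 3 for AOC against IEC12, where the limma test at an adjusted p below 0.05 called 10, 11 and 24. With no filter, 18 pathway genes were called between IEC4 and IEC2 because 66 were then tested. With a replicate left out, the counts of the pathway ran from 10 to 11, 10 to 12 and 21 to 24, in the order of the pathway counts above. Of the calls of the list counted here, only that of FRZB between AOC and IEC12 was lost with a replicate left out. The DKK1 ratio of IEC12 to IEC4 was 205 with group medians and ran from 78.7 to 229 with a replicate left out, and that of IEC12 to IEC2 from 2960 to 4531. The DKK3 ratio of IEC12 to IEC4 was 0.487 without IEC4 replicate C. The cause was not tested.

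Libraries with the same replicate letter were treated as unpaired. Their deviations correlated between -0.51 and 0.25 over 18 pairs of libraries. Deviations from a mean of 3 libraries cannot show whether the letters paired them. A fit with the letter as a replicate block called 11, 10 and 23 pathway genes and changed no call of a single gene of the list. The read number is unknown, so no limit for genes listed at 0 can be given.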
